A study of Mus musculus with 20 samples.

Results

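Hair follicle stem cells of male mice were compared between anagen, the growth phase of the hair cycle, and telogen, its resting phase. All 5 anagen arrays were set against all 15 telogen arrays, the 20 arrays of the series, over 18727 genes. The cells came from 5 conditions, each with 3 telogen arrays and 1 anagen array. Mice on a normal diet (ND 3M) or a high fat diet (HFD 3M) for 3 months were 5 months old at sampling. Mice on the same diets for 4 days (ND 4d and HFD 4d) were 2 months old. The fifth condition (Aged) was 24 months old, and its labels name no diet. No transgene, genotype or strain is named in the labels, and the way the cells were isolated, the number of mice behind a sample and the stage of anagen are not given in the sources used here. Each difference below is the mean of the 5 differences between the anagen array of a condition and the mean of its telogen arrays, on the log2 scale, with its standard error. A signal is the processed brightness of a probe divided by the 75th percentile of its array, so signals compare arrays for 1 gene and not genes with each other. Signals of the 5 anagen arrays are given in the order ND 3M, HFD 3M, ND 4d, HFD 4d and Aged, and those of the 15 telogen arrays as lowest, median and highest.

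The hair follicle grows, regresses and rests in turn, and its stem cells lie in the bulge, where they stay quiet through most of telogen. At the start of a cycle hedgehog, Wnt and FGF signals from the base of the follicle and the dermal papilla bring stem cells and their progeny into division, while BMP signals and FGF18 keep them at rest. Bulge cells are known by CD34, keratin 15 and keratin 24, and in later anagen most of them rest again while the matrix below makes the hair. Nothing in the labels separates bulge cells from other cells that carry the same surface marks in anagen, so in these bulk samples fewer cells of a kind and less RNA per cell cannot be told apart.

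The bulge markers Cd34, Krt15, Lgr5, Sox9, Lhx2, Nfatc1, Tcf7l1, Itga6 and Col17a1 and the basal keratinocyte markers Krt5, Krt14 and Trp63 were well above background on 20 of 20 arrays. Their summed signals ran from 204.3 to 296.0 in anagen and 258.3 to 455.1 in telogen for the 9 bulge markers, and from 240.2 to 374.0 and 233.9 to 456.9 for the 3 basal markers. Summed signals of 15 lists of markers of other cells overlapped between the phases for 14 lists, melanocytes, macrophages, T cells, sebocytes and dermal papilla among them. The sum of the 13 measured fibroblast markers did not overlap, with 18.02 to 23.33 in anagen and 26.74 to 66.34 in telogen. Among these, 4 fell and 2 rose, and the dermal papilla sum had a median of 4.347 in anagen and 12.72 in telogen with 0 of 7 markers called. Mcpt4 and Ms4a2 of mast cells, Emcn of endothelium, Dpt of fibroblasts and Ckm of muscle were not well above background on any anagen array. The part of these cells in the results below was not tested. All anagen arrays lay in column 1 of their slides and all telogen arrays in columns 2 to 4, so the phase and the column cannot be told apart. Both phases shared a slide in ND 3M, ND 4d and Aged, but not in HFD 3M and HFD 4d. The labels do not say that the samples of a group came from separate animals, and a p-value here is set against the spread among samples alone.

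Of the 18727 genes, 1140 (6.09%) passed limma's moderated test after Benjamini-Hochberg adjustment, with 520 (2.78%) higher and 620 (3.31%) lower in anagen. The median difference over all genes was -0.16, and scaling each array by its median in place of the 75th percentile moved it to 0.06 and the split to 655 higher and 333 lower. Quantile normalization gave 618 higher and 602 lower. All 5 anagen arrays lay above all 15 telogen arrays for 147 genes (0.785%) and below all of them for 134 (0.716%). Of the 520 genes called higher, 486 were above telogen in each of the 5 conditions and 34 in 4 of them, and of the 620 called lower, 528 were below in each and 92 in 4. Over all tested genes, 3529 (18.84%) had 1 sign in the 5 conditions.

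The 5 conditions could be set against each other without shared arrays by fitting 4 of them and reading the sign in the one left out. Of 187 genes called higher without ND 3M, 182 (97.33%) were higher in ND 3M, where 37.49% of all genes were. The same share was 94.95% of 218 genes in ND 4d, 90.34% of 176 in HFD 4d and 91.09% of 359 in Aged. Of all genes 39.96%, 40.3% and 43.47% were higher in these conditions. HFD 3M stood apart, with 460 of 573 (80.28%) where 61.28% of all genes were higher. For genes called lower the shares were 92.39%, 87.54%, 90.72% and 83.3% in ND 3M, ND 4d, HFD 4d and Aged. Of all genes 62.51%, 60.04%, 59.7% and 56.53% were lower there. In HFD 3M the share was 625 of 1200 (52.08%), where 38.72% of all genes were lower. These 1200 genes had a smaller median difference in the fit that called them (-1.16) than genes called without another condition (-1.96 to -1.61). The median difference of all genes was above 0 in HFD 3M (0.22) and below 0 in the other 4 conditions (-0.35 to -0.16). HFD 3M telogen replicate 3 had the lowest share of spots well above background in telogen (64.32%). Its median signal was 0.092, against 0.138 and 0.143 on the other HFD 3M telogen arrays. It enters each HFD 3M difference, and its part in them was not tested. Without it 545 genes were higher and 716 lower. Across genes, the differences of HFD 3M correlated with those of the other conditions at 0.13 to 0.18, and the others among themselves at 0.32 to 0.42. Genes called higher had a median difference of 1.25 in HFD 3M and of 1.79 to 2.04 in the others. Without the HFD 3M anagen array 660 genes (3.52%) were higher and 1421 (7.59%) lower, so counts of called genes in a list or family below that moved by more than 1.5 times, or away from 0, are given with and without it. Shares called in the lists and families below are read beside 6.09% of all genes, with 2.78% higher and 3.31% lower. The lists were written with earlier results of these data known, so their shares and ranks may partly reflect that choice. Counts without that array are read beside 3.52% and 7.59%.

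**Figure D1:**
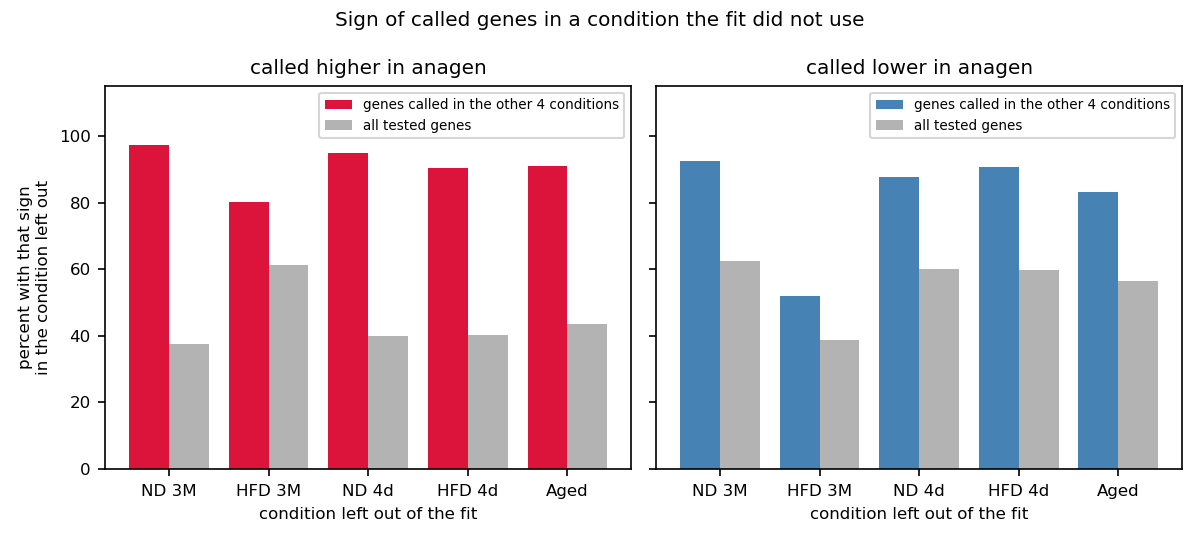
Share of genes with the sign of their call in the condition that was left out of the fit (y axis, percent), for genes called higher (left) and lower (right) in the other 4 conditions, with the share of all tested genes in grey. Shares run from 80.28% to 97.33% for genes called higher and from 52.08% to 92.39% for genes called lower, with HFD 3M lowest in both.

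The largest concerted difference lay in the cell cycle. Of 37 measured mitosis genes 26 rose and 0 fell (median 3.16, 70.27% called), and of 39 DNA replication genes 24 rose and 0 fell (median 1.71, 61.54% called), beside 2.78% of all genes called higher. Cdc20, which activates the anaphase-promoting complex, read 8.55, 7.05, 7.6, 9.43 and 7.6 on the anagen arrays against 1.18, 2.14 and 3.88 in telogen. Every anagen array lay above every telogen array, and the difference was 1.93 ± 0.25 (adjusted p 0.000262, limma). The B-type cyclin Ccnb2 read 2.6, 1.52, 2.4, 2.61 and 2.29 against 0.081, 0.211 and 1.23, again without overlap, a difference of 3.10 ± 0.50. Cdk1, the mitotic kinase that binds it, read 1.7, 0.699, 1.28, 1.16 and 0.458 against 0.006, 0.055 and 0.433 (4.30 ± 0.90), where 10 of 15 telogen arrays were well above background. The kinetochore motor Cenpe had the smallest p of the mitosis genes, with 1.21, 0.597, 2.48, 2.29 and 1.16 against 0.034, 0.059 and 0.378 and a difference of 4.13 ± 0.51 (adjusted p 0.000196).

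Because the members of both lists moved together, promoters are shown for some of their called genes. These were taken in order of p among genes whose printed bases held the letters searched for. The presence of those letters in the lines below was therefore set by the choice. Each line holds the 200 bases before the RefSeq start site on GRCm38.p6, 5′ to 3′ on the strand of the gene. Capitals mark CCAAT or its reverse complement ATTGG, the element bound by NF-Y, and TTTGAA, a core of the cell cycle homology region.

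Cdc20: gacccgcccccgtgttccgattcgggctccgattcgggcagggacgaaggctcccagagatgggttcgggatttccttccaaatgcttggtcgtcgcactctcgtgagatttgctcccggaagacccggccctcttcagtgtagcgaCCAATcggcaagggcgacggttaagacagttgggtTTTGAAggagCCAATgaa

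Ccnb2: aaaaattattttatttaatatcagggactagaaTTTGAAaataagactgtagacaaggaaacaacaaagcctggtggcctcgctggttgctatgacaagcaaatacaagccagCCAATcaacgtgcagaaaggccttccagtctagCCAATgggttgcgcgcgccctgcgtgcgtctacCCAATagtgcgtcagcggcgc

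Cdk1: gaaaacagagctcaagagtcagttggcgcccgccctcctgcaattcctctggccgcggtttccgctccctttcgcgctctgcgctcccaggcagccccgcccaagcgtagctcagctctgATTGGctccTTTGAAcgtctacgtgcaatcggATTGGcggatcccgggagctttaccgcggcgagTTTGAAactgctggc

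These windows are chr4:118437344-118437543, chr9:70421555-70421754 and chr10:69352913-69353112, all on the minus strand. In Cdc20 a TTTGAA begins 18 bases before the start and CCAAT begins 53 and 8 bases before it. Ccnb2 holds CCAAT at 87, 54 and 21 bases before the start, evenly spaced, and Cdk1 holds ATTGG at 80 and 48 and TTTGAA at 71 and 15. Searched on both strands over 250 bases before the start, with overlapping matches allowed, CCAAT was found in 26 of 33 promoters of the mitosis list (78.79%) and in 33.85% of 32851 promoters of 27025 genes. TTTGAA was found in 12 of 33 (36.36%) and in 15.99%. For the replication list the letters searched were those of E2F sites, TTTGGCGC and TTTCCCGC, in capitals on the following lines for 2 helicase subunits.

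Mcm5: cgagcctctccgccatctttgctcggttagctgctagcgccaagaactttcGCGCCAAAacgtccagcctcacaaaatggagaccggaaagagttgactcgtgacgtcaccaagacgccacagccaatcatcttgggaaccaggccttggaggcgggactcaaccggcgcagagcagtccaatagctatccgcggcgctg

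Mcm6: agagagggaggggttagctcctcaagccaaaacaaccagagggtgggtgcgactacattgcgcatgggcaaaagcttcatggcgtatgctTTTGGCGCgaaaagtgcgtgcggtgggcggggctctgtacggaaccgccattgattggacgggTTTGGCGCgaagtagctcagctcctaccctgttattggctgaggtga

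The windows are chr8:75109309-75109508 on the plus strand and chr1:128359706-128359905 on the minus strand. Mcm5 holds GCGCCAAA, the reverse complement of TTTGGCGC, 149 bases before its start, and Mcm6 holds TTTGGCGC at 110 and 47. TTTGGCGC was found in 3 of 36 promoters of the replication list (8.33%) and in 0.42% of all, and TTTCCCGC in 3 of 36 and in 0.89%. A match is a run of letters and was not tied to binding in these samples.

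Mcm5, a subunit of the replicative helicase, read 7.68, 5.4, 6.97, 9.8 and 5.17 against 0.252, 1.31 and 3.06, and its 5 anagen arrays lay above all telogen arrays (2.41 ± 0.42, adjusted p 0.00285). Mcm2 read 2.57, 1.39, 3.88, 2.63 and 0.64 against 0.084, 0.303 and 0.823 (2.86 ± 0.56), with the Aged anagen array inside the telogen range. The ribonucleotide reductase subunit Rrm1, which makes deoxynucleotides, read 9.25, 5.45, 6.24, 6.31 and 4.41 against 0.566, 1.78 and 3.41, without overlap (1.96 ± 0.38). Tyms, which makes thymidylate, read 14.5, 14.4, 16.8, 12.4 and 10.66 against 0.865, 2.58 and 9.32, so that its telogen arrays spanned a wider range than its anagen arrays (2.07 ± 0.53). The clamp Pcna had a small difference (0.66 ± 0.17), with anagen signals of 49.2, 45, 49.3, 44.6 and 37.4 and telogen signals of 18.6, 27.9 and 38.6. The origin recognition subunit Orc1 and the spindle protein Aspm were well above background on 5 of 5 anagen and 7 of 15 telogen arrays, with differences of 5.20 ± 1.04 and 5.20 ± 1.17. The proliferation marker Mki67 read 21.1, 16, 21.2, 16.8 and 11.2 against 0.088, 3.04 and 6.75, a difference of 3.16 ± 0.85 with an adjusted p of 0.0366. Its telogen arrays spread from 0.088 to 6.75, so the p was close to the threshold although no arrays overlapped. Topoisomerase Top2a had the same shape, 10.68, 5.03, 9.35, 10.3 and 4.45 against 0.019, 0.925 and 4.57 (3.45 ± 0.88), with the Aged anagen array below the highest telogen array. Without single arrays, Mki67, Top2a, Tyms, Pcna, Aspm and Cdk1 lost the call, with highest adjusted p of 0.127, 0.111, 0.0887, 0.123, 0.0646 and 0.0512. Top2a, Tyms and Pcna lost it when any 1 of 4 anagen arrays was left out, and Mki67 when any 1 of 8 arrays was. Aspm lost it without the ND 4d anagen array and Cdk1 without the HFD 4d anagen array.

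With the slide as a fixed block 16 mitosis and 6 replication genes were called, and with the 3 conditions whose phases share a slide 13 and 2, all higher. These are not separate checks. HFD 3M and HFD 4d have their phases on different slides, so in the block their differences only set the slide terms. Both fits, and each fixed slide block below, take the difference from ND 3M, ND 4d and Aged (list medians 3.35 and 1.78). The block ended the calls of Mki67, Top2a, Tyms, Pcna, Aspm and Cdk1 (limma adjusted p 0.0901, 0.0801, 0.122, 0.0858, 0.081 and 0.0658). The median of the mitosis list was 2.98, 1.54, 3.94, 3.44 and 3.23 in the 5 conditions, lowest in HFD 3M. For the replication list it was 1.92, 1.12, 2.20, 2.24 and 0.97, with HFD 3M and Aged lower than the other 3. The phosphatase inhibitor Cip2a (2.97 ± 0.40), the Cdk1-activating phosphatase Cdc25c (4.10 ± 0.83), the GTPase regulator Racgap1 of the cleavage furrow (2.39 ± 0.33) and the spindle motors Kif4 (4.08 ± 0.77) and Kif20a (3.34 ± 0.64) were higher on 5 of 5 anagen arrays. Entry regulators of G1 had smaller differences. Cdk4 was higher by 0.73 ± 0.19 (adjusted p 0.0298) and lost the call when any 1 of 4 anagen arrays was left out (up to 0.0989), whereas Ccnd1 (0.11 ± 0.19) and Ccnd2 (0.02 ± 0.21) did not pass. The growth regulator Myc read 17.1, 22.7, 12, 16.8 and 17.7 against 17.8, 26.3 and 45.9 (-0.64 ± 0.21, adjusted p 0.0831) and did not pass either.

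Among 23 genes listed for CDK inhibitors and quiescence 4 fell and 1 rose (21.74% called), 4 and 3 without the HFD 3M anagen array. The gene that rose was Cdk4, the G1 entry kinase above, which is neither an inhibitor nor a gene of quiescence. Cdkn1c, which encodes the inhibitor p57, read 0.007, 0.016, 0.513, 0.017 and 0.007 against 0.261, 1.5 and 5.66, with a difference of -5.82 ± 0.86 (adjusted p 0.00081). Of its 5 anagen arrays only ND 4d was well above background, and all 15 telogen arrays were. The antiproliferative factor Tob1 fell by 1.24 on the log2 scale (SE 0.23) and the thioredoxin inhibitor Txnip by 1.11 (SE 0.24), and Txnip lost the call without the ND 3M or the ND 4d anagen array (up to 0.0659). Cdkn1a (0.33 ± 0.39) and Cdkn1b (-0.34 ± 0.25), the inhibitors p21 and p27, did not pass. Of 44 p53 targets and DNA damage genes 6 rose and 1 fell (median 0.62, 15.91% called), with the slide block 3 and 1. The ligase Lig4 (3.53 ± 0.54), the recombination factor Rad54l (2.15 ± 0.47) and the checkpoint kinase Chek1 (3.27 ± 0.81) were among those that rose, and leaving out the ND 3M anagen array took Chek1 to 0.117 and leaving out the HFD 4d anagen array took Rad54l to 0.0641.

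**Figure D2:**
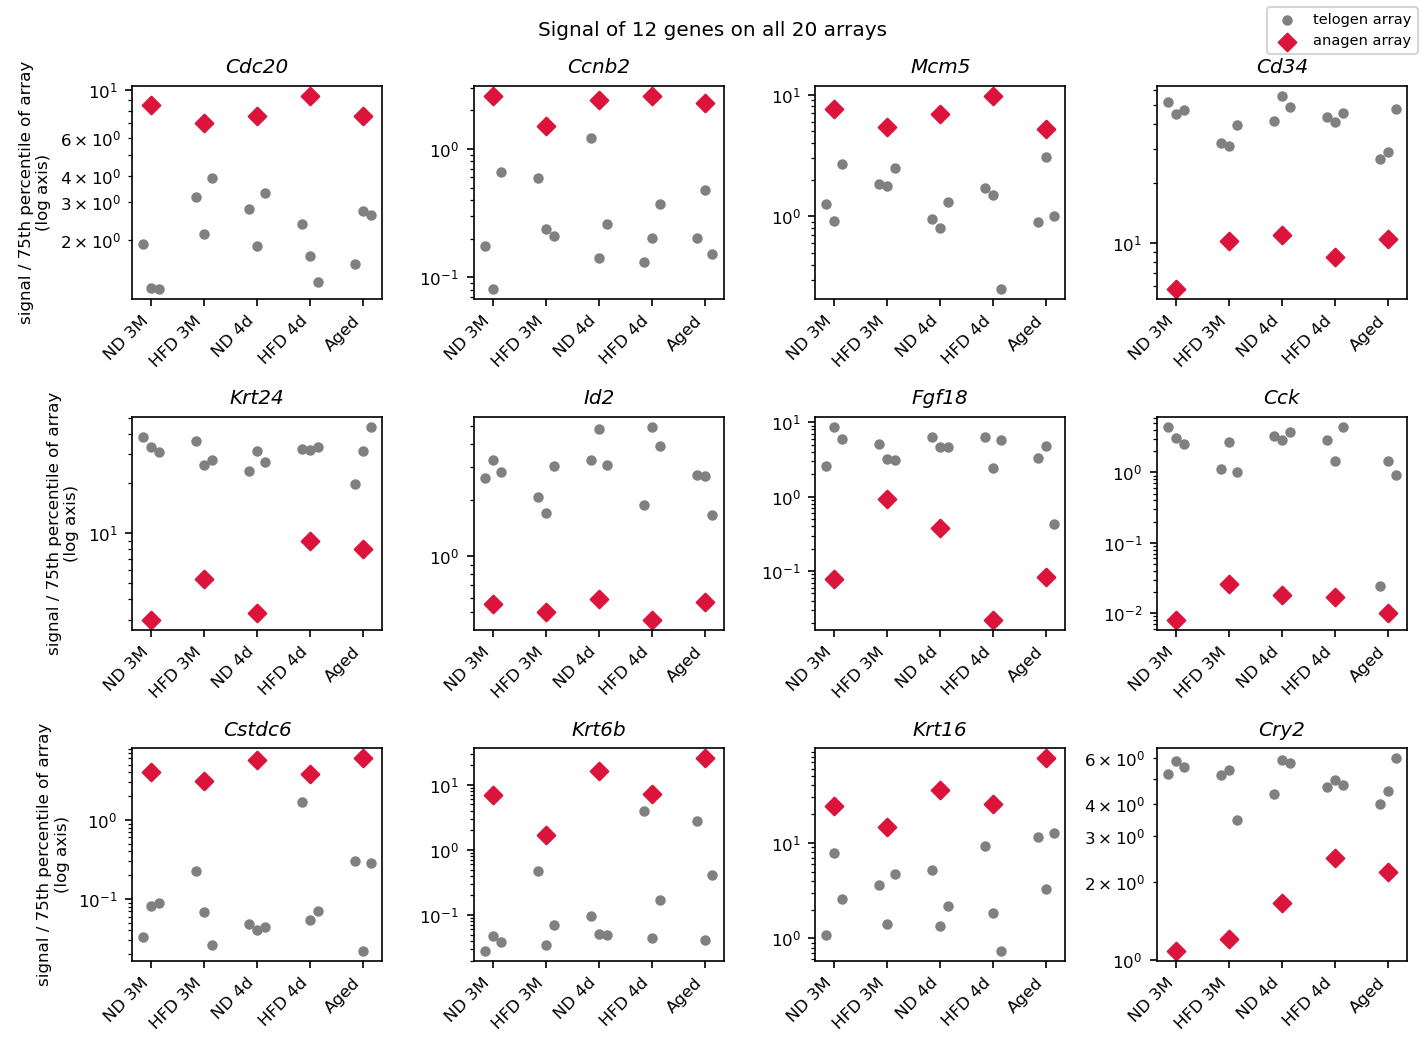
Signal relative to the 75th percentile of the array (y axis, log scale) on the 15 telogen arrays (grey points) and the 5 anagen arrays (red diamonds), by condition, for 12 genes. Anagen arrays lie above all telogen arrays for Cdc20, Ccnb2, Mcm5, Cstdc6 and Krt16 and below all of them for Cd34, Krt24, Id2 and Cry2.

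Genes that mark the bulge moved the other way. Of 27 measured bulge stem cell genes 0 rose and 11 fell (median -0.48, 40.74% called, beside 3.31% of all genes called lower). Cd34, the surface sialomucin by which bulge cells are often sorted, read 5.81, 10.2, 11, 8.45 and 10.5 against 26.6, 43.5 and 55.9. All anagen arrays lay below the lowest telogen array, and the difference was -2.19 ± 0.20 (adjusted p 2.02e-05). The keratin Krt24 read 2.99, 5.31, 3.31, 8.93 and 8.07 against 19.8, 31.5 and 44.1, with a difference of -2.56 ± 0.23 and no overlap. Ltbp2, which binds matrix microfibrils, read 0.43, 3.27, 3.12, 2.24 and 2.86 against 7.11, 15.5 and 19.9 (-2.86 ± 0.37), and the ND 3M array was the lowest. Dkk3, a secreted relative of Wnt inhibitors, fell by 1.20 (SE 0.15). Krt15 read 52.5, 81.4, 52.6, 62.6 and 57.4 against 70.3, 106.9 and 156 (-0.81 ± 0.18), and the hemidesmosome collagen Col17a1 had -0.72 ± 0.16, so both fell by less than Cd34 and with overlapping arrays. Neither passed under median scaling, and both lost the call without the ND 3M or the ND 4d anagen array (adjusted p up to 0.0672 and 0.0717).

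Several other bulge regulators had no call, though Hopx and Nfib were also among the 11 genes that fell. Lgr5, a receptor for R-spondins, read 10.04, 6.51, 14, 11.4 and 8.52 against 6.09, 10.9 and 18 (-0.19 ± 0.21, adjusted p 0.598). The transcription factors Sox9 (-0.57 ± 0.21), Lhx2 (-0.44 ± 0.16), Nfatc1 (-0.12 ± 0.19), Tcf7l1 (-0.22 ± 0.39), Tcf7l2 (-0.48 ± 0.19) and Tbx1 (-0.14 ± 0.16) did not pass, nor did the integrin Itga6 (0.31 ± 0.23). Foxc1, a factor of bulge quiescence, was lower (-0.97 ± 0.25) and lost the call when any 1 of 4 anagen arrays was left out, with an adjusted p of up to 0.145. Median scaling left 5 of the 11 calls and the slide block 7, all lower, and without the HFD 3M anagen array there were 11. The list median lay below 0 in each condition, from -0.64 in ND 4d to -0.27 in HFD 3M.

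Several targets of BMP signals, which hold the bulge at rest, fell. Of 39 genes of the BMP and TGF-beta pathway 8 fell, 2 rose and 29 did not pass (median -0.36, 25.64% called, beside 6.09% of all genes). Id1, Id2 and Id3, targets of BMP signalling that hold back differentiation factors, were among those that fell. Id2 read 0.552, 0.505, 0.592, 0.455 and 0.567 against 1.67, 2.82 and 4.94, so that all 5 anagen arrays lay close together and below every telogen array (-2.40 ± 0.23, adjusted p 2.43e-05). Id3 read 1.85, 0.9, 1.95, 1.14 and 1.07 against 2.82, 4.52 and 9.89 (-1.88 ± 0.23), also without overlap. Id1 had a difference of -1.76 ± 0.28 with 2 anagen arrays inside the telogen range. The BMP antagonists Grem1 and Fst fell as well, Grem1 from a telogen median of 39.5 to 17.8, 18.2, 13.2, 20.3 and 19.9 (-1.10 ± 0.15) and Fst to 3.55, 3.54, 3.13, 2.98 and 2.7 (-1.26 ± 0.19), both below all telogen arrays. Among ligands Bmp2 was lower (-1.89 ± 0.46) and Bmp7 (1.94 ± 0.49) and the activin subunit gene Inhbb (1.42 ± 0.35) higher, the antagonist Nog was lower (-1.99 ± 0.49), and Bmp4 (-0.82 ± 0.58) and Id4 (-0.17 ± 0.27) did not pass. The calls of Bmp2, Nog and Inhbb were lost when any 1 of 3 anagen arrays was left out and that of Bmp7 when any 1 of 4 was (up to 0.113, 0.106, 0.0986 and 0.109). With the slide block 7 genes of the pathway fell and 0 rose, and the list median relative to that of all genes turned from -0.20 to 0.03.

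FGF18, a ligand that keeps telogen long, was among the largest drops. Fgf18 read 0.078, 0.934, 0.383, 0.022 and 0.082 against 0.434, 4.64 and 8.69, with 4 of 5 anagen and 15 of 15 telogen arrays well above background and a difference of -4.79 ± 0.64 (adjusted p 0.000351). The lowest telogen value came from an Aged array, below the HFD 3M anagen array. Of 28 FGF and EGF genes 4 fell and 0 rose (14.29% called), though the median (-0.17) turned to 0.05 with median scaling and to 0.005 with quantile normalization. The feedback inhibitor Spry1 fell by 1.88 (SE 0.31) and the ligand Fgf1 by 1.79 (SE 0.31), with 8.47, 12.2, 4.07, 6.58 and 6.61 against 8.71, 26 and 40.1. The receptor Fgfr1 (-0.84 ± 0.22) lost the call under median scaling, with the slide block and when any 1 of 6 arrays was left out (up to 0.153).

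In the Wnt pathway 5 of 41 genes fell and 0 rose (12.2% called), and the median (-0.14) turned to 0.07 with median scaling. The called genes were receptors and secreted inhibitors: Fzd3, Fzd8 and Fzd2 among the Frizzled receptors, with Dkk3 and Wif1. Fzd8 lost the call without the ND 3M or the Aged anagen array and Fzd2 when any 1 of 10 arrays was left out (up to 0.0814 and 0.155). Fzd3 read 0.613, 0.339, 0.254, 1.42 and 0.655 against 1.51, 2.61 and 4.57, without overlap (-2.24 ± 0.32). Fzd9, outside that list, read 0.015, 0.025, 0.013, 0.29 and 0.014 against 0.19, 2.53 and 4.16 and had a difference of -5.83 ± 0.78, where 1 of 5 anagen arrays (HFD 4d) was well above background. Counting all genes named Fzd, 5 of 10 tested fell and 0 rose, and without the HFD 3M anagen array 4 fell. The Wnt inhibitor Wif1 was lower by 1.96 (SE 0.41), a call that the slide block ended (0.11). Axin2, a feedback target of Wnt signalling, read 0.321, 0.087, 0.123, 0.507 and 0.976 against 0.153, 0.753 and 1.55 and did not pass (-1.13 ± 0.64), and Lef1 (-0.59 ± 0.42) was well above background on 2 of 5 anagen arrays.

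The hedgehog pathway was split between targets and co-receptors. Of 16 measured genes 2 rose, the target factor Gli1 and the receptor Ptch1, itself a target, and 2 fell, the co-receptors Boc and Cdon. Gli1 read 6.87, 2.75, 4.31, 3.53 and 3.93 against 0.399, 1.51 and 3.28, a difference of 1.52 ± 0.37 with the HFD 3M anagen array inside the telogen range. Ptch1 read 20.7, 8.97, 14.1, 17.9 and 8.28 against 1.92, 4.86 and 11.2 (1.47 ± 0.41, adjusted p 0.0462). Both calls were fragile, since Gli1 lost its call when any 1 of 4 anagen arrays was left out (up to 0.1) and Ptch1 when any 1 of 14 arrays was left out (up to 0.172) and with the slide block (0.111). Boc fell by 1.60 (SE 0.26), and Cdon read 25.3, 1.42, 7.91, 5.96 and 7.17 against 8.14, 37.8 and 63.6 (-2.22 ± 0.47), with a value on the ND 3M anagen array that lay well within telogen. The slide block ended the call of Cdon (0.104). Gli2 (0.48 ± 0.39) did not pass.

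Igfbp6, a binding protein that holds back IGF-II, fell from a telogen range of 3.18 to 13.6 to 0.123, 2.17, 0.446, 1.29 and 2.19 (-3.23 ± 0.48). The kinase regulator Pik3r1 fell by 0.82 (SE 0.17), a call lost with median scaling and without the ND 4d anagen array (0.0519). These and Igfbp5 were the 3 of 28 genes of IGF, insulin and mTOR signalling that fell (10.71%). Igfbp5 lost the call under median scaling (0.117), with the slide block (0.184) and when any 1 of 15 arrays was left out (up to 0.117). The list median (-0.11) turned to 0.11 under median scaling. In the Notch pathway 1 of 22 genes rose, the ligase Dtx4 (1.34 ± 0.32), and 1 fell, the ligand Dll1 (-2.61 ± 0.73). These are 9.09% of the list, and without the HFD 3M anagen array 2 rose and 2 fell. Dll1 lost its call when any 1 of 13 arrays was left out and Dtx4 without 2 (up to 0.156 and 0.101). Of 29 Jak-Stat genes 1 rose, Stat2 (1.25 ± 0.30), and 0 fell (3.45% called, beside 6.09% of all genes), 2 and 0 without the HFD 3M anagen array. Stat2 lost the call without the ND 4d or the Aged anagen array (up to 0.0931).

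After mitosis and DNA replication, stefins and antimicrobial genes had the highest share called higher among the function lists, whose members were chosen with earlier results known. Stefins are small inhibitors of cysteine proteases, encoded in mouse by a cluster of near-identical copies. Of 27 measured stefin and antimicrobial genes 10 rose and 0 fell (37.04% called, median 0.59), the slide block gave 10 and 1, and leaving out the HFD 3M anagen array gave 11 and 1. Cstdc5 read 32.5, 33.6, 43.9, 31 and 49.4 against 3.19, 5.52 and 21.9, without overlap (2.62 ± 0.33, adjusted p 0.000262). Cstdc6 read 4.07, 3.09, 5.76, 3.79 and 6.13 against 0.022, 0.068 and 1.67 (5.69 ± 0.75), and Stfa1 14, 10.5, 17.4, 12 and 21.3 against 0.006, 0.325 and 6.1 (5.79 ± 1.16), each with 13 of 15 telogen arrays well above background. Cstdc4 (4.18 ± 0.52) was well above background on 6 of 15 telogen arrays, and Stfa2l1 rose by 2.75 ± 0.38. Probes for such copies may read more than 1 of them, which was not tested, so the 9 stefins called are not 9 separate observations. The tenth gene was S100a8, an alarmin of stressed keratinocytes and neutrophils, with 0.043, 0.766, 0.541, 0.055 and 2.47 against 0.004, 0.007 and 0.288 (5.14 ± 0.94) and 1 of 15 telogen arrays well above background. The sum of 5 neutrophil markers was 47.33 to 72.05 in anagen and 51.88 to 88.44 in telogen, and 1 of the 5, Cxcr2, rose (2.23 ± 0.39). The part of neutrophils in this result was not tested.

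Genes of stratified epidermis rose in part. Of 36 measured epidermal differentiation genes 9 rose and 1 fell (median 1.1, 27.78% called), 12 and 1 without the HFD 3M anagen array and 6 and 1 with the slide block. Small proline-rich proteins, which are cross-linked into the cornified envelope, led them. Sprr1b read 11, 2.53, 13.4, 10.4 and 21.3 against 0.042, 0.097 and 5.7 (5.48 ± 1.09), and Sprr2b 12.1, 11.8, 14.5, 10.8 and 25 against 0.53, 1.69 and 9.54, without overlap (2.95 ± 0.52). Of 11 genes named Sprr 6 rose (54.55%), and of 18 late cornified envelope genes named Lce 4 rose (22.22%), 7 without the HFD 3M anagen array. The kallikrein Klk6 (4.31 ± 0.65) and Hrnr, a filaggrin relative (2.53 ± 0.45), rose on 5 of 5 anagen arrays. Tgm5, a transglutaminase of the upper epidermis, went down instead, with 4.65, 5.22, 2.56, 4.51 and 2.6 against 4.68, 14.3 and 20.7 (-1.84 ± 0.23). The summed signal of 10 interfollicular epidermis markers overlapped, with 212.7 to 321.3 in anagen and 169.1 to 342.0 in telogen.

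The promoters of Sprr2h and Sprr2d, members of the cluster that rose together, are shown with capitals for TGAGTCA, the AP-1 element, and TATAAA, the TATA box. They were chosen among the called genes of the list because their printed bases hold TGAGTCA.

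Sprr2h: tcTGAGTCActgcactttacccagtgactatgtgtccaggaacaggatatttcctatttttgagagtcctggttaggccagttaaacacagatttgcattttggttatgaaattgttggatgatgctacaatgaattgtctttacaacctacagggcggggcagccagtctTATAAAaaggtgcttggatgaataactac

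Sprr2d: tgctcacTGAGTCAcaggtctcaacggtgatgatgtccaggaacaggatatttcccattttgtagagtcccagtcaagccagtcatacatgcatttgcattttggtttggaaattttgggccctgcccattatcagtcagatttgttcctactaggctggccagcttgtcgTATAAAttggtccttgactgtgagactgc

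The windows are chr3:92385485-92385684 and chr3:92338940-92339139 on the plus strand, and in both TATAAA begins 29 bases before the start. Sprr2d lost the call without the ND 3M or the Aged anagen array (up to 0.0662). TGAGTCA begins 198 bases before it in Sprr2h and 193 in Sprr2d. On both strands TGAGTCA was found in 9 of 39 promoters of the epidermal differentiation list (23.08%) and in 4.46% of all promoters, and TATAAA in 14 of 39 (35.9%) and 12.37%. Neighbouring Sprr promoters are alike in sequence, so these promoters are not independent of each other.

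Keratins moved in both directions. Of 24 measured epithelial and outer root sheath keratins 5 rose and 5 fell (41.67% called). Krt6b and Krt16, which rise in the companion layer, the outer root sheath and activated epidermis, read 6.98, 1.71, 16, 7.19 and 26.2 against 0.028, 0.052 and 3.94 (6.06 ± 0.98) and 24.3, 14.8, 35.8, 25.7 and 78.2 against 0.736, 3.33 and 12.7 (3.22 ± 0.55). Krt16 had no overlap, and Krt6b overlapped only through the HFD 3M anagen array. Krt79, a keratin of the infundibulum, read 24, 32.6, 17.6, 18.2 and 24.9 against 3.92, 6.84 and 18.3 (1.44 ± 0.27). Krt17 had a small difference (0.66 ± 0.17), lost when any 1 of 5 arrays was left out (up to 0.0943). Among those lower, the companion layer keratin Krt75 read 0.178, 0.11, 0.176, 0.022 and 0.019 against 0.113, 0.35 and 0.924 (-2.55 ± 0.49), a call that the slide block ended (0.0704), and Krt80 read 4.65, 10.04, 2.38, 8.61 and 15.6 against 17.3, 22.3 and 34.4, without overlap (-1.81 ± 0.30). Krt5 (-0.40 ± 0.18), Krt14 (-0.05 ± 0.17) and Krt6a (-0.01 ± 0.32) did not pass. The inner root sheath keratins Krt71 (-0.09 ± 0.59) and Krt25 (-0.31 ± 0.56) did not pass, and the 13 markers of hair matrix and inner root sheath summed to 13.81 to 21.98 in anagen and 12.15 to 24.71 in telogen.

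Upper follicle markers and hair shaft and inner sheath proteins moved in both directions. Lrig1, a marker of junctional zone stem cells, read 11, 10.4, 9.04, 8.04 and 11.4 against 2.37, 4.43 and 7.51, without overlap (1.18 ± 0.23). Lrig1 and Krt79 were among the 3 of 15 upper follicle markers that rose, while 2 fell (33.33% called). Of 33 hair shaft and inner sheath proteins 3 rose and 2 fell (15.15% called, median -0.35), 3 and 5 without the HFD 3M anagen array. Among those that rose were the aminopeptidase Lap3 (1.75 ± 0.28) and the metallothionein Mt4 (1.81 ± 0.31). Of 25 transcription factors of the hair lineages 1 rose, Prdm1 (2.74 ± 0.65), a repressor found in the sebaceous gland and the hair-forming layers, and 0 fell (4.0% called). Without the HFD 3M anagen array 1 rose and 2 fell. Prdm1 lost the call with the slide block and without the ND 3M, HFD 4d or Aged anagen array (up to 0.0825). Its list median (0.12) turned to -0.31 with the slide block.

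The gasdermin C cluster and the connexins rose. Gasdermins form membrane pores when cleaved, and all 5 called of 33 genes of cell death (15.15%) were gasdermins. Gsdma read 3.89, 3.98, 2.82, 7.33 and 7.02 against 0.36, 1.16 and 2.86 (2.26 ± 0.36) and Gsdmc 1.35, 0.375, 1.22, 2.57 and 3.82 against 0.216, 0.361 and 1.11 (1.78 ± 0.26). Gsdmc3 (6.20 ± 1.62) was well above background on 6 of 15 telogen arrays, and Gsdmc2 (1.71 ± 0.35) on 3 of 5 anagen and 3 of 15 telogen arrays. Gsdmc4 (1.56 ± 0.41) lay above the telogen mean in 4 conditions and below it in HFD 3M. Gsdmc3 and Gsdmc4 lost the call when any 1 of 4 anagen arrays was left out (up to 0.106 and 0.127). The gap junction proteins Gjb2, Gjb6 and Gja1, which couple keratinocytes, made up 3 of the 5 junction genes that rose among 40 measured, beside 1 that fell, 5 and 3 without the HFD 3M anagen array. Gja1 read 13, 15.3, 12.4, 10.5 and 12.5 against 2.57, 5.68 and 10.3, without overlap (1.31 ± 0.22), and Gjb2 9.52, 11, 10.5, 6.87 and 19.3 against 0.004, 0.394 and 7.53 (5.10 ± 1.15). Gjb2 and Gjb6 (4.61 ± 1.01) lost the call without the ND 4d anagen array (0.0756 and 0.0567).

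All clock genes that passed the test were lower in anagen. Of 22 measured genes of the circadian clock 7 fell, 0 rose and 15 did not pass (median -0.68, 31.82% called lower beside 3.31% of all genes), and 9 were below telogen in each condition. Median scaling left 5 calls and the slide block 6. The list median lay between -1.03 and -0.54 in the 5 conditions. Cry2, a repressor of the clock, read 1.08, 1.2, 1.65, 2.48 and 2.19 against 3.47, 5.19 and 6.04, below all telogen arrays (-1.61 ± 0.20, adjusted p 0.000196). The output factor Tef read 8.98, 7.28, 7.43, 9.69 and 6.95 against 14.1, 17.4 and 21.7 (-1.11 ± 0.15), also without overlap, and Per1 0.724, 2.12, 0.925, 0.543 and 0.85 against 1.42, 2.6 and 3.52 (-1.44 ± 0.24). The repressor Nr1d1 (-1.67 ± 0.42) and the output factor Dbp (-1.14 ± 0.29) were also lower. Both lost the call under median scaling and when any 1 of 3 anagen arrays was left out (up to 0.115 and 0.11). Bhlhe41, a repressor in the loop, read 0.156, 0.117, 0.627, 1.09 and 0.068 against 0.211, 2.17 and 16: it was below the telogen mean in 4 conditions and above it in HFD 4d (-3.10 ± 0.61). Sampling times of day are not given in the sources used here, so the phase of the hair cycle and the hour of sampling cannot be told apart. The Bhlhe41 promoter is shown with the E-box CACGTG, to which Clock and Bmal1 bind, in capitals. It was chosen among the called clock genes because its printed bases hold CACGTG.

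Bhlhe41: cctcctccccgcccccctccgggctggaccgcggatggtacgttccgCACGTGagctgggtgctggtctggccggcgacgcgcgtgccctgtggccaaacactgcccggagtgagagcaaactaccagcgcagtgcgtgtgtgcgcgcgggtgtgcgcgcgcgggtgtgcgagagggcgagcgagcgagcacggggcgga

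The window is chr6:145865421-145865620 on the minus strand, with CACGTG 153 bases before the start. CACGTG was found in 6 of 26 promoters of the clock list (23.08%) and in 6.02% of all promoters.

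Receptors for steroids and an enzyme of retinoic acid breakdown also fell. Of 31 nuclear receptor and retinoid genes 5 fell and 1 rose (19.35% called), and 9 and 1 without the HFD 3M anagen array. The glucocorticoid receptor Nr3c1 read 4.25, 1.97, 3.56, 3.03 and 0.843 against 5.99, 8.89 and 11.7, without overlap (-1.90 ± 0.25), and its target Tsc22d3 was lower (-1.22 ± 0.33) but lost the call when any 1 of 8 arrays was left out (up to 0.124). Cyp26b1, which degrades retinoic acid, read 0.085, 0.443, 0.139, 0.153 and 1.77 against 2.48, 3.88 and 9.73 (-4.07 ± 0.55). All its anagen arrays lay below telogen, with Aged closest. Among 30 immediate early genes 6 fell and 2 rose (26.67% called), 8 and 4 without the HFD 3M anagen array. The matrix protein gene Ccn2 read 13.3, 30.9, 14.8, 22.1 and 21.4 against 36.1, 65.8 and 91.8 (-1.63 ± 0.26) and Klf4 fell by 0.78 (SE 0.15), whereas Egr2 rose (1.89 ± 0.43). Klf4 did not pass under median scaling, and Egr2 lost the call without the HFD 4d or the Aged anagen array (up to 0.0649). Klf9, a target of glucocorticoids, had -2.41 ± 0.66 and lost the call when any 1 of 10 arrays was left out (up to 0.103).

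**Figure D3:**
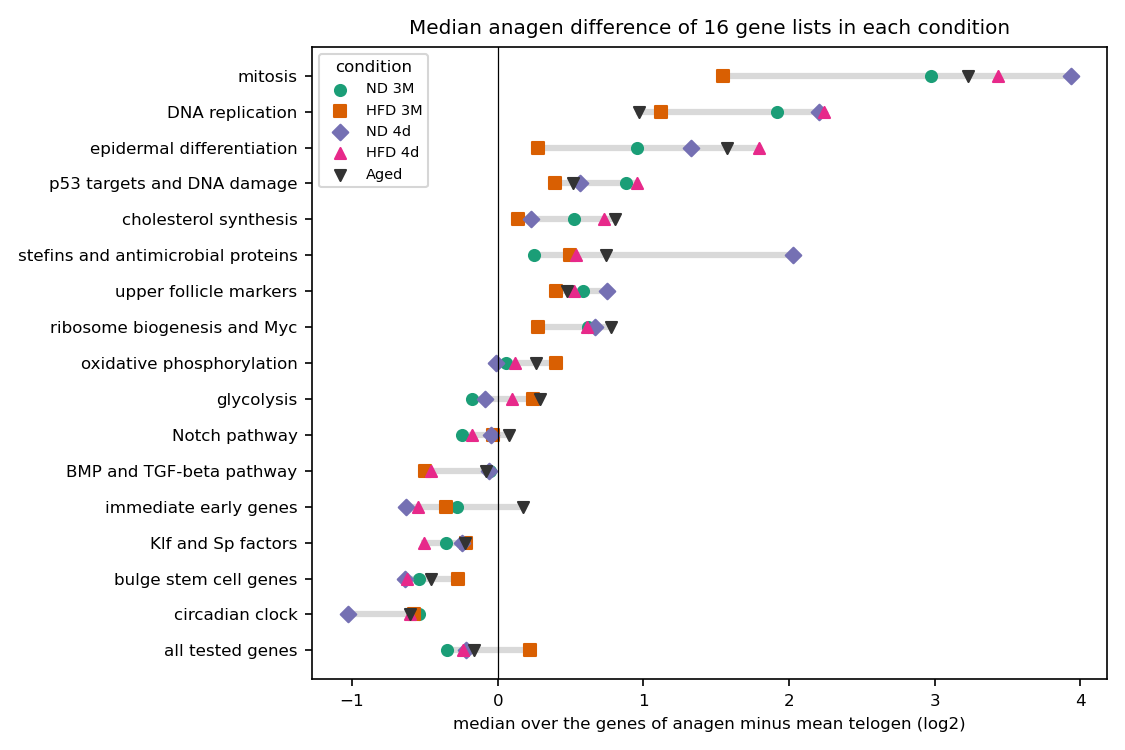
Median difference, anagen minus mean telogen (x axis, log2), over the measured members of 16 gene lists in each of the 5 conditions, with all tested genes at the bottom. Mitosis and DNA replication lie to the right in each condition, bulge genes and the circadian clock to the left, and HFD 3M has the smallest mitosis median (1.54).

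Large single differences also belonged to genes with other roles. Pcp4, which binds calmodulin, read 3.4, 15.7, 4.7, 1.66 and 6.31 against 0.005, 0.015 and 3.61. Its difference (6.82 ± 1.42) rests on dim telogen signals, with 6 of 15 arrays well above background, and the slide block ended the call (0.0674). Ulbp1, a stress ligand of the receptor NKG2D, was well above background on 5 of 5 anagen and 0 of 15 telogen arrays, at least 12.1-fold higher in anagen (adjusted p 2.02e-05). The death receptor Eda2r of the TNF family (5.12 ± 0.75) and Lrrc8b, a subunit of volume-regulated anion channels (4.57 ± 0.55), rose on 5 of 5 arrays. For such a bound the mean of the bright phase was divided by the dimmest signal that still counted as well above background on each array of the other phase.

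On the other side, Cck, the gene of the peptide hormone cholecystokinin, was well above background on 0 of 5 anagen and 14 of 15 telogen arrays. Its signals were 0.008, 0.026, 0.018, 0.017 and 0.01 against 0.024, 2.7 and 4.47, at least 57.9-fold lower in anagen (adjusted p 3.73e-05), and the 1 telogen array in the anagen range was from Aged. The sialyltransferase St6galnac5 was at least 13.6-fold lower, the glutamate receptor Grik1 at least 9.85-fold and the zinc finger gene Zfp78 at least 6.2-fold, each well above background on 0 anagen arrays. Grik1 lost the call without the HFD 4d or the ND 3M anagen array (up to 0.0512). Sncg, a synuclein, read 0.053, 0.312, 0.075, 0.118 and 0.898 against 1.92, 5.68 and 16.6, without overlap (-5.09 ± 0.51), and the adrenergic receptor Adra2a 0.137, 0.016, 0.179, 0.855 and 0.901 against 2.35, 5.17 and 12.9 (-4.81 ± 0.60). The secreted protein Angptl7 (-5.30 ± 0.92), the neuronal kinesin Kif5c (-5.21 ± 0.96) and the RNA-binding protein Igf2bp3 (-4.90 ± 0.76) fell on 5 of 5 arrays.

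The smallest p-value of all belonged to Il31ra, a receptor subunit of the itch cytokine IL-31, with 2.81, 3.72, 2.25, 4.07 and 1.43 against 10.6, 17.4 and 25.5 (-2.72 ± 0.21, adjusted p 6.66e-06). Close behind came Adamtsl4, a protein of microfibrils (-2.36 ± 0.21), the protease Prss23 (-2.49 ± 0.23), the collagen Col8a2 (-2.52 ± 0.23) and the hydrogen peroxide source Duox1 (-2.47 ± 0.24). All 5 anagen arrays lay below all 15 telogen arrays for each of these. Their differences were also even over the conditions: those of Adamtsl4 ran from -2.59 to -2.04.

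Of 24 cholesterol synthesis genes 3 rose and 0 fell (median 0.61, 12.5% called higher beside 2.78% of all genes), and 21 of the 24 lay above 0. With the slide block 1 rose. Those that rose included Sqle (1.99 ± 0.49) and Idi1 (0.83 ± 0.22), in the synthesis of squalene epoxide and isoprenoids. Both lost the call without single arrays, Sqle without 4 and Idi1 without 11 of the 20 (up to 0.115 and 0.149). Of 36 fatty acid synthesis and storage genes 3 rose and 0 fell (8.33% called). The epidermal fatty acid carrier Fabp5 read 26.2, 27.5, 30.1, 21.9 and 43.9 against 3.54, 8.62 and 19.8, without overlap (1.67 ± 0.29), and the desaturase Scd2 had 2.46 ± 0.59 and the elongase Elovl6 1.43 ± 0.39. Scd2 lost the call without 3 arrays and Elovl6 without 12 (up to 0.0964 and 0.172). In glycolysis 3 of 32 rose and 2 fell (15.62% called, beside 6.09% of all genes): Pgk1 (0.95 ± 0.18) and Eno1 (1.05 ± 0.21) rose without overlap, whereas Aldoc (-2.59 ± 0.45) and Pdk2 (-1.90 ± 0.35), a brake on pyruvate oxidation, fell.

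Of 51 oxidative phosphorylation genes 2 rose and 0 fell (3.92% called), a share near the background, and the median was 0.16. Cox5a, a subunit of cytochrome oxidase, read 11.8, 11.7, 11.6, 11.2 and 12.2 against 4.48, 5.99 and 9.8, so all anagen arrays were alike and above telogen (0.88 ± 0.17). Of 41 genes of ribosome biogenesis and Myc 1 rose and 1 fell (4.88% called), and of 44 of translation 3 and 1 (9.09%). Without the HFD 3M anagen array these were 2 and 3, and 6 and 1. Of 28 genes of the unfolded protein response 1 rose (3.57%), Hyou1 (1.80 ± 0.36). Psph, the last step of serine synthesis, read 5.12, 5.65, 5.16, 5.7 and 4.8 against 1.29, 2.29 and 4.3 (1.18 ± 0.23), a call that the slide block ended (0.0651), and the amino acid transporter Slc43a1 fell (-3.94 ± 0.54). Aquaporins of the keratinocyte fell, Aqp3, which carries water and glycerol, from a telogen median of 99.4 to 30.3, 43.4, 29.8, 32.1 and 51 (-1.40 ± 0.18) and Aqp7 by 3.09 (SE 0.47). Both lay below all telogen arrays.

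Of 32 chemokine and cytokine genes 6 fell and 0 rose (18.75% called, median -0.28, 3 with the slide block). Cxcl14 read 6.13, 11.4, 8.38, 7.88 and 9.76 against 19.3, 26.8 and 37.1 (-1.66 ± 0.19), and Ccl27a, which draws T cells to skin, 4.62, 10.9, 5.02, 5.96 and 10.9 against 15.1, 25.3 and 34 (-1.86 ± 0.23). Both were below telogen on all anagen arrays, and Cxcl12 fell by 1.16 (SE 0.23) with overlap. Of 18 measured genes listed for the interleukin-1 family 1 rose (5.56%), Il1b (1.00 ± 0.28), and 2 rose without the HFD 3M anagen array. The call of Il1b was lost when any 1 of 14 arrays was left out (up to 0.122). Il1f6 and Il1f8, which the list did not hold, also passed the test. Of 24 antigen presentation genes 3 fell (12.5%), the class Ib gene H2-M3 (-2.43 ± 0.47) and H2-Q4 (-0.68 ± 0.16) among them. H2-Q4 did not pass under median scaling or when any 1 of 4 anagen arrays was left out (up to 0.0627). Of 30 interferon response genes 2 rose, Oas1a (2.45 ± 0.54) and Stat2, and 2 fell, Usp18 (-2.29 ± 0.47) among them (13.33% called). Without the HFD 3M anagen array 4 rose and 5 fell. Oas1a lost the call without the HFD 4d or the Aged anagen array and with the slide block (0.0586 and 0.0704), and Usp18 without the ND 3M anagen array (0.0513). Markers of macrophages and Langerhans cells summed to 116.4 to 204.5 in anagen and 116.1 to 235.3 in telogen, and those of T cells to 4.493 to 12.34 and 2.366 to 8.847.

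The contact with the matrix changed in both directions. Of 49 basement membrane and adhesion genes 6 fell and 4 rose (20.41% called), and with the slide block 8 fell and 0 rose. The median (-0.15) turned to 0.06 with median scaling. The basement membrane laminin chain Lamb3 (-1.30 ± 0.19) and the integrin Itgb4 (-1.07 ± 0.19), a part of the hemidesmosome with Col17a1, fell, as did the syndecan Sdc4 (-0.90 ± 0.15). The protease inhibitor Timp2 (-1.32 ± 0.18) and Cdh13, a cadherin without a cytoplasmic tail (-1.86 ± 0.18), lay below telogen on all anagen arrays. The dermal collagens Col6a1 (-1.44 ± 0.22) and Col6a2 (-2.23 ± 0.37) fell with the sum of the fibroblast markers, of which they are a part.

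The other lists held up to 5 calls each, and their shares are read beside 6.09% of all genes called. Of 33 matrix proteases and their inhibitors 1 rose and 4 fell (15.15% called), 2 and 6 without the HFD 3M anagen array. Of 31 genes of amino acid transport 2 rose and 2 fell (12.9%), of 39 antioxidant genes 3 and 2 (12.82%), of 24 hypoxia genes 1 and 2 (12.5%) and of 45 water and ion transport genes 2 and 3 (11.11%). Without that array the antioxidant genes gave 3 and 5 and the transport genes of water and ions 2 and 5. Of 45 axon guidance genes 1 rose and 3 fell (8.89%), and 2 rose and 8 fell without it. Of 31 NF-kappaB genes 1 rose and 2 fell (9.68%), of 22 Klf and Sp factors 0 and 2 (9.09%) and of 45 actin genes 2 and 2 (8.89%). Shares near that of all genes were found for PPAR targets (1 and 1 of 31, 6.45%, and 1 and 0 without that array) and protein folding with the proteasome (3 and 1 of 52, 7.69%, and 5 and 1). The mitochondrial carrier Ucp2 rose (1.32 ± 0.37) and lost the call when any 1 of 13 arrays was left out (up to 0.184).

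**Figure D4:**
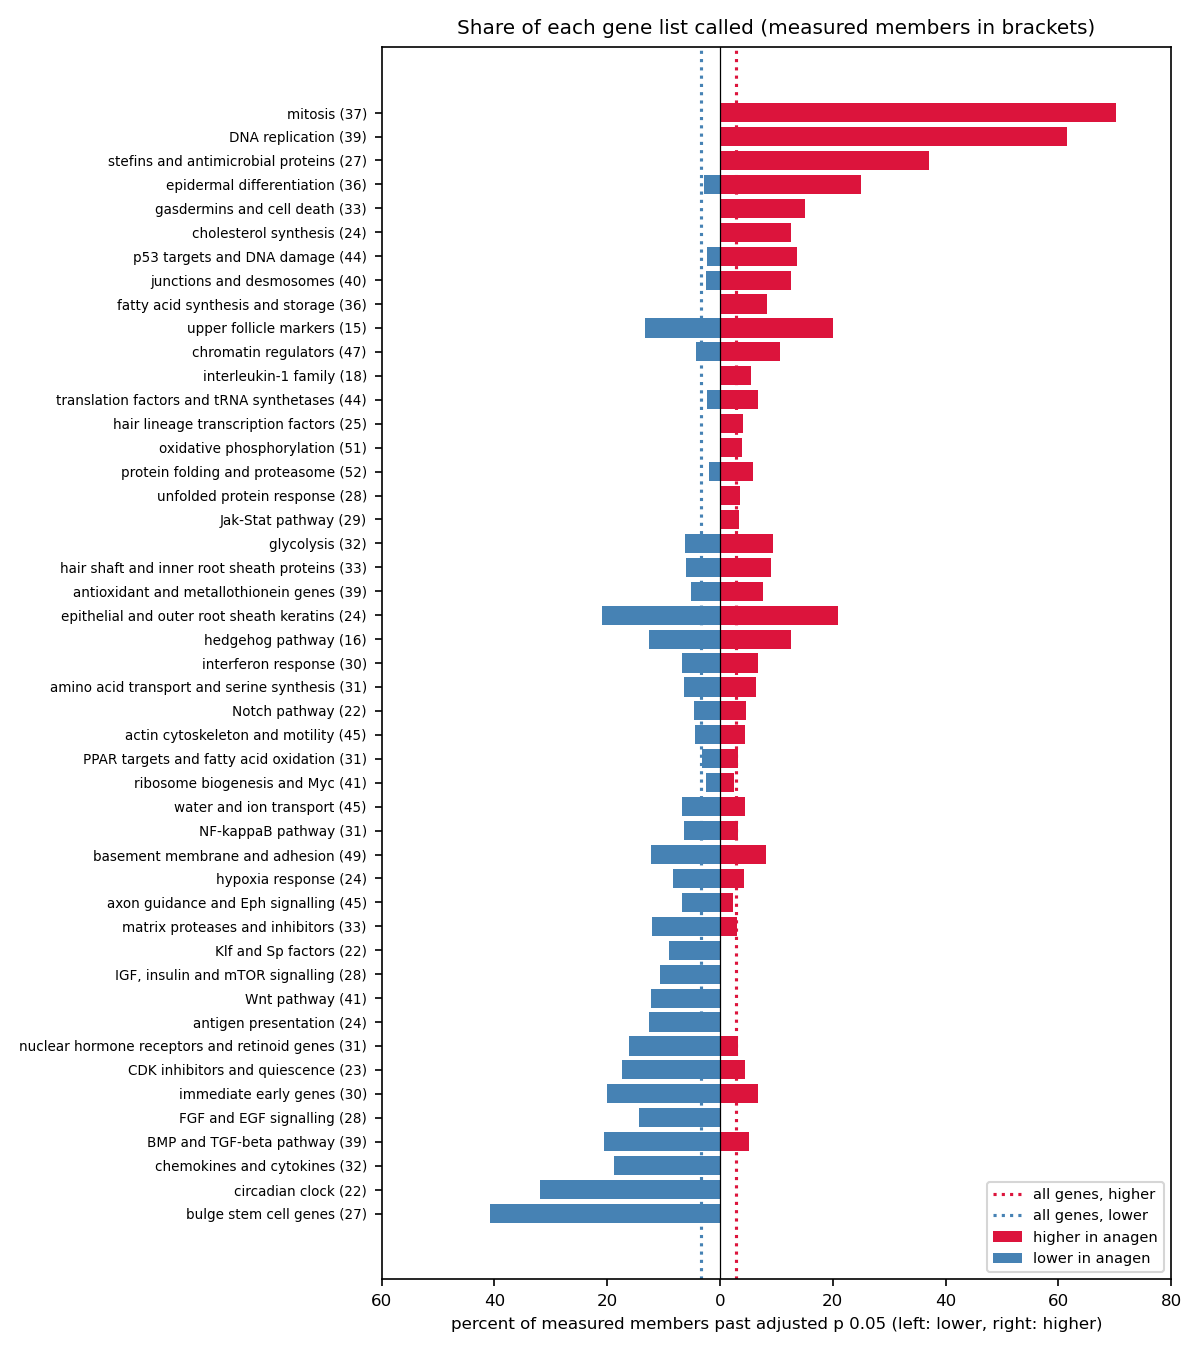
Share of measured members called higher (right, red) or lower (left, blue) in anagen (x axis, percent) for 47 gene lists of functions, with the shares over all tested genes as dotted lines (2.78% and 3.31%). Mitosis (70.27%) and DNA replication (61.54%) have the highest shares on the right and bulge stem cell genes (40.74%) on the left.

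Grouped by the letters of their symbols, 292 families had at least 8 tested members, and 153 of them held a called gene. In 13 families 3 or more members rose and in 18 families 3 or more fell. The families described were picked from those with the highest shares called. They are read beside 2.78% of all genes higher and 3.31% lower, or 3.52% and 7.59% without the HFD 3M anagen array. Besides Sprr, 5 of 10 Mcm genes rose, and 8 of 37 kinesins named Kif rose while 1, Kif5c, fell, 8 and 4 without the HFD 3M anagen array. Of 11 splicing factors named Srsf 3 rose (27.27%), with Srsf7 at 10.2, 5.02, 8.05, 6.27 and 7.83 against 0.818, 2.6 and 4.99 (1.57 ± 0.34) and Srsf1 at 0.68 ± 0.17. Of 19 nucleoporins, which build the nuclear pore, 4 rose (21.05%), and Nup93 read 9.92, 8.64, 9.06, 8.83 and 7.23 against 1.87, 3.97 and 5.74, without overlap (1.17 ± 0.22). Averaging all probes of Srsf1 or Stat2 in place of the brightest turned the sign of the difference (-0.028 and -0.068), so their probes disagree. Srsf7 lost the call without the ND 4d or HFD 4d anagen array (up to 0.0581) and Srsf1 when any 1 of 4 was left out (up to 0.0863).

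Families that fell were led by the Frizzled receptors. Of 12 potassium channels named Kcnk 3 fell, with Kcnk2 lower by 3.21 (SE 0.47). Of 78 cytochromes P450 named Cyp 11 fell (14.1%) and 0 rose, 16 and 1 without the HFD 3M anagen array. Cyp4b1 read 2.32, 3.3, 1.96, 2.5 and 1.85 against 4.63, 8.44 and 14.8, without overlap (-1.75 ± 0.22), and Cyp2s1 fell by 1.35 (SE 0.20). Of 42 collagens 5 fell (11.9%) and 1 rose, 9 and 1 without that array. Of 68 genes named Il for interleukins and their receptors 6 fell (8.82%) and 3 rose (4.41%). Of 47 chromatin regulators 5 rose and 2 fell (14.89% called), with the slide block 2 and 0. The high mobility group protein Hmgb2 (0.90 ± 0.19, lost without the ND 4d anagen array at 0.059) and the demethylase Kdm1a (0.97 ± 0.20) rose, and the methyltransferase Ezh1, common in resting cells (-1.38 ± 0.27), and the remodeller Smarca2 (-1.07 ± 0.21) fell, calls that the slide block ended (0.0662 and 0.0649).

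Few genes passed a test of whether the difference between the phases varied with condition. It rests on 1 anagen array a condition, so few calls do not show that the difference was even. A moderated F-test of the phase by condition terms called 58 genes (0.31%), 1739 at an unadjusted p under 0.05, and 4 of the 58 were also called between the phases. This test takes its error from telogen replicates and assumes that the lone anagen array of each condition varies like them. The condition farthest from the median of the 5 was Aged for 15 of the 58 genes, HFD 3M for 15, HFD 4d for 11, ND 3M for 10 and ND 4d for 7. Col2a1, the collagen of cartilage, read 2.27, 19.98, 0.147, 0.13 and 0.483 against 0.128, 0.208 and 0.4, high on the HFD 3M array and raised on ND 3M (adjusted p of the variation 8.73e-05). Pid1, which dampens insulin signalling, read 1.73, 0.006, 0.989, 1.67 and 1.45 against 3.1, 5.59 and 9.72, with a signal not well above background on the HFD 3M array alone (0.00144). The acute phase protein Saa3 read 0.06, 0.129, 0.128, 0.104 and 2.87 against 0.08, 0.126 and 0.177, high on the Aged array (0.00609). Anxa3, an annexin, was high in HFD 3M, Lgi2, a secreted leucine-rich protein, in ND 3M, and Vmn1r12, a vomeronasal receptor gene, was above background on 1 anagen array, HFD 4d. Cyp26b1 also varied (0.029), and both Cyp26b1 and Pid1 fell in each condition. With 1 anagen array a condition, these patterns rest on single arrays.

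**Figure D5:**
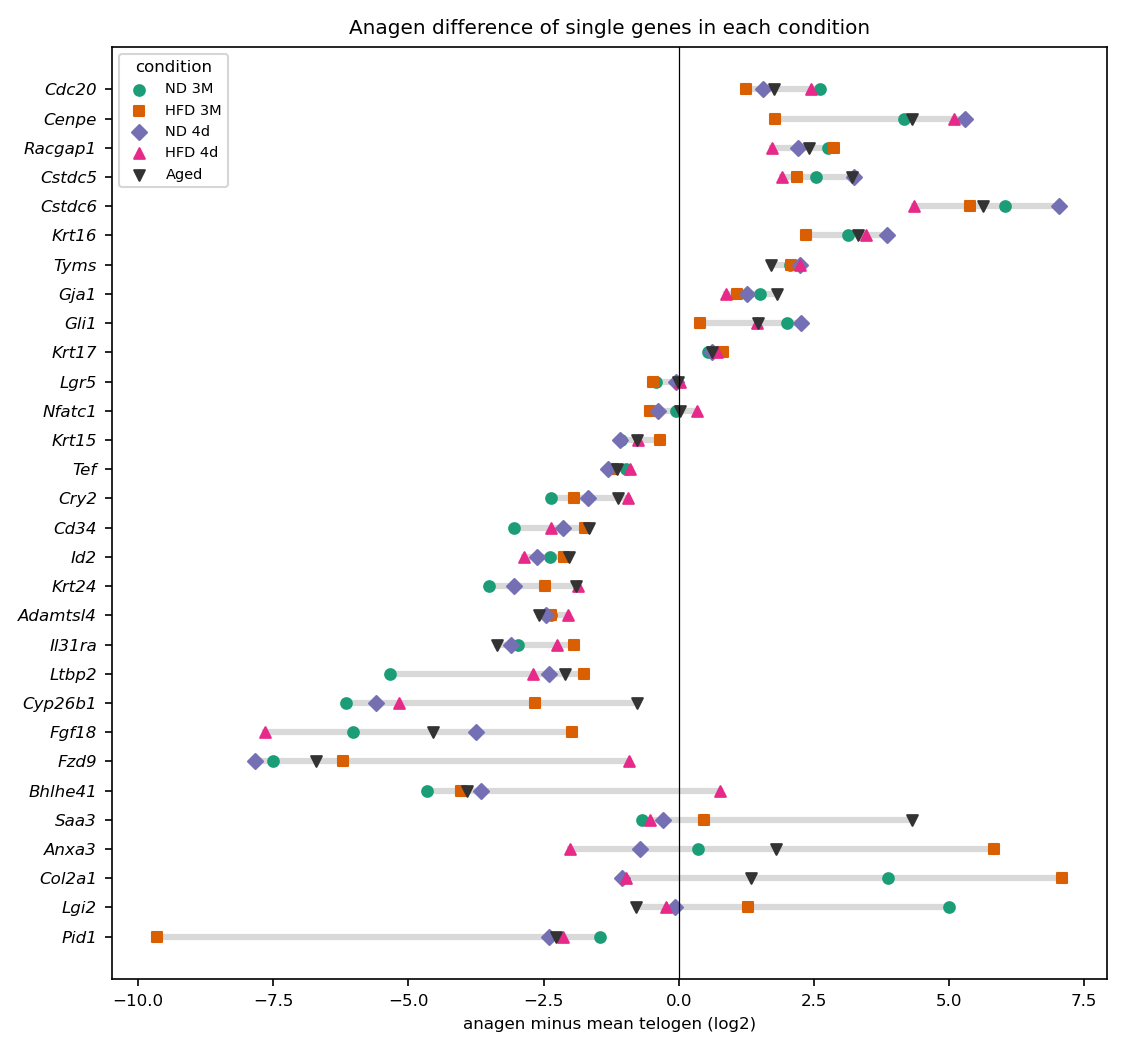
Difference of single genes, anagen minus mean telogen (x axis, log2), in each of the 5 conditions, with a grey bar over their range. Differences of Cdc20, Cstdc6, Krt16, Cd34, Id2 and Cry2 lie on 1 side of 0 in each condition, whereas Bhlhe41 (HFD 4d) and Saa3 (Aged) have 1 condition far from the others and Col2a1 is high in HFD 3M and ND 3M.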

How the data were processed

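Total RNA of hair follicle stem cells was purified with a column kit and labelled with Cy3 by the authors, and each sample was hybridised to 1 Agilent mouse array, per the labels' protocols. Per the file headers, Agilent Feature Extraction 10.7.1.1 gave each spot a background-subtracted, detrended intensity and a flag where it was well above background. The table deposited by the authors holds 1 linear signal for each probe. It matched the scanner intensity of the same array divided by a constant close to its 75th percentile (correlation of log2 values at least 0.99994), with no centring of genes. The scaling step itself is not named in the labels or headers.

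Without controls an array had 59305 spots, 0 of them saturated and 62 to 159 marked as outliers. Between 60.7% (ND 3M anagen) and 83.49% of spots were well above background, and the number of arrays limits the precision: the median half-width of a 95% interval was 0.746 (log2). A probe entered when well above background on at least 3 of 5 anagen arrays or on all 3 arrays of a telogen group, which kept 43395 of 56605 probes. Through their accessions and RefSeq, 32994 probes matched 1 symbol, 0 several and 23611 none, and 26858 of those kept had a symbol. A gene was its entering probe with the highest mean, giving 18727 genes.

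log2 of the deposited signals was fitted in limma 3.58.1 (R 4.3.3) with condition and phase as terms, and two-sided p-values were adjusted over the 18727 genes by Benjamini-Hochberg (threshold 0.05). A second fit tested the phase by condition terms. Members and lists were chosen with earlier results of these data known. The rule for named genes takes the largest differences and smallest p-values a direction, up to 4 called members of a list with the smallest p, up to 3 of a family, the called genes most even over the conditions, the most variable genes and a set of key genes. Not every gene named by the rule is given, some genes are not reported here, and others outside it were named after their values were seen. Gene symbols are those of RefSeq, and promoters are from its GRCm38.p6 table. The fits were tested on simulated data. Alternatives were other scaling, background correction, filters, probe rules, variance settings, slide blocks, thresholds and leaving out each array or condition. Restricting the fit to conditions with both phases on 1 slide, and giving list counts without the HFD 3M anagen array, were chosen after seeing the data.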

Additional observations from a re-analysis of the deposited data

Results flagged for a closer look

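In 13 of 256 items, 194 named genes and 62 gene lists, the difference of 1 condition lay far from those of the other 4, by a rule for small groups that chance meets in about 1 in 20 groups, so the number is close to what chance gives. The value given is the log2 difference, anagen minus mean telogen, of the condition that stood apart. In HFD 3M these were Pid1 at -9.66 (-2.41 to -1.46 in the other 4 conditions), Aldoc at -3.96 (-2.42 to -1.9), Gsdmc4 at -0.36 (1.79 to 2.35) and Nup93 at 0.67 (1.2 to 1.34). In HFD 4d they were Fzd9 at -0.91 (-7.83 to -6.22), Bhlhe41 at 0.76 (-4.65 to -3.66) and Ucp2 at 2.34 (0.84 to 1.27). Ltbp2 stood apart in ND 3M at -5.34 (-2.7 to -1.76) and the acute phase gene Saa3 in Aged at 4.31 (-0.68 to 0.47). Among medians of gene lists, ND 4d stood apart for stefins and antimicrobial proteins at 2.03 (0.25 to 0.75) and for the circadian clock at -1.03 (-0.6 to -0.54). HFD 3M did so for markers of neutrophils at 0.47 (-0.57 to -0.39) and of endothelial cells at 0.59 (-0.71 to -0.48). The HFD 3M anagen array lay on another slide than its telogen arrays, and the part of the slide in these values was not tested.

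For 7 genes the difference between the phases varied over the conditions by the moderated F-test of limma. The adjusted p was 8.73e-05 for Col2a1, 0.00144 for Pid1, 0.00144 for Vmn1r12, 0.00313 for Anxa3, 0.00313 for Lgi2, 0.00609 for Saa3 and 0.029 for Cyp26b1. With 1 anagen array in each condition, variation over conditions and variation between anagen samples cannot be told apart.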

How the results depend on the processing

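No paired analysis was possible because the anagen arrays carry no replicate number, so phases were paired only by condition. The count of genes called between the phases (1140) was 1145 with scanner values, 1283 with normexp, 1220 with quantile normalization and 1153 with the slide as a random block. It was 1926 with array weights, 668 with the slide as a fixed block (204 higher and 464 lower, 512 of them also called without it), 453 with telogen averaged to 5 pairs, 320 in conditions with both phases on 1 slide and 404 at an adjusted p under 0.01. Without a condition it was 463 (ND 3M), 1773 (HFD 3M), 555 (ND 4d) and 467 (HFD 4d), and without 1 array between 559 (ND 3M anagen) and 2081 (HFD 3M anagen). Of 166 called genes followed through these fits 53 lost the call without at least 1 array. The call was kept by 152 with median scaling, 126 with the fixed slide block, 82 with 5 pairs and 80 in the same-slide conditions. The fixed slide block and the same-slide fit take their differences from ND 3M, ND 4d and Aged alone, so they are not separate checks. Averaging probes reversed Stat2 (-0.068) and Srsf1 (-0.028), and the cause was not tested. The share of tested genes that varied with condition (0.31%) was 0.571% after quantile normalization, 0.486% after scaling by the median, 0.873% with dim probes kept, 0.16% with probes detected on all arrays, 0.182% with a variance trend and 0.0908% at 0.01, and 0.139% (without HFD 4d telogen replicate 3) to 0.443% (without Aged telogen replicate 3) without 1 array. Median scaling changed the sign of 13 of 62 list medians. Signals near background limit folds of genes dim in 1 phase.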
